A study of Homo sapiens with 15 samples.

Results

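The cholesterol and fatty acid synthesis genes examined here were a list of 34 named genes: enzymes of the mevalonate pathway, enzymes of sterol synthesis, regulators of both, enzymes of fatty acid synthesis and desaturation, and 3 target genes of the liver X receptors (LXR). A listed gene counted as measured where an array probeset carried its symbol alone, and where several did, the brightest one on average over all 15 arrays stood for the gene. This left 32 of the 34 listed genes, among 18417 genes measured in all. FDFT1 had no probeset under its symbol in the annotation used here, and HSD17B7 had only a probeset that carried several symbols. CYP51A1 was the only measured member with 2 probesets of its own, and FDPS appeared also in 2 probesets with several symbols, which were not used.

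RNA was measured on whole-transcript Affymetrix arrays in 5 groups of 3 samples each. HUVEC, endothelial cells of the human umbilical vein that the labels list as a cell line, were kept for 6 h in EGM2 medium with exosomes of JINB8 cells, were kept the same way with exosomes of JK cells, or were labelled as untreated. JK cells are Jurkat, a human T cell leukaemia line labelled CD47+, and JINB8 is a Jurkat mutant line labelled CD47-; CD47 is a membrane protein that binds thrombospondin. The remaining groups were RNA of the JINB8 exosomes and RNA of the JK exosomes. Exosomes were precipitated with the ExoQuick reagent from concentrated medium of T cells grown with human AB serum, which was lowered for at least a passage before collection. A mock precipitate was not analysed here, and the labels do not say whether replicates came from separate cultures, so the p-values measure the spread between these arrays, which may be technical.

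Cells build cholesterol from acetyl-CoA through the mevalonate pathway to squalene, and then through a chain of sterol intermediates. The sterol regulatory element-binding proteins, encoded by SREBF1 and SREBF2, switch on the genes of both cholesterol and fatty acid synthesis after SCAP escorts them out of the endoplasmic reticulum, and the INSIG proteins hold SCAP back when sterols are plentiful. When oxysterols accumulate, the liver X receptors switch on sterol export and other target genes, and in endothelial cells membrane cholesterol also shapes lipid rafts and receptor signalling.

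Promoter windows are shown for 5 members: HMGCS1 and INSIG1, which were lower in exosome-treated HUVEC, INSIG2 and SCD, which were higher after normalization, and SREBF2, the gene of the sterol-responsive transcription factor itself. Each window runs 5′ to 3′ over 300 bases, 250 before and 50 after the first start listed for the gene, and was taken from RefSeq (GRCh38.p14), where 28 of the 32 measured members were found. Capitals mark each match on either strand to the E-box CACGTG or the CCAAT box, which reads ATTGG on the other strand.
HMGCS1 promoter, chr5:43313363-43313662, minus strand: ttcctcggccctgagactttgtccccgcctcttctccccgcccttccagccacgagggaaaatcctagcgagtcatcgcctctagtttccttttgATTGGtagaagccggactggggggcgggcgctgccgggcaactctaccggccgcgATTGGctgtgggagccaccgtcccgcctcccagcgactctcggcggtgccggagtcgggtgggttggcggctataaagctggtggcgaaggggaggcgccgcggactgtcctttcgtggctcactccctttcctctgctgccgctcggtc
INSIG1 promoter, chr7:155297628-155297927, plus strand: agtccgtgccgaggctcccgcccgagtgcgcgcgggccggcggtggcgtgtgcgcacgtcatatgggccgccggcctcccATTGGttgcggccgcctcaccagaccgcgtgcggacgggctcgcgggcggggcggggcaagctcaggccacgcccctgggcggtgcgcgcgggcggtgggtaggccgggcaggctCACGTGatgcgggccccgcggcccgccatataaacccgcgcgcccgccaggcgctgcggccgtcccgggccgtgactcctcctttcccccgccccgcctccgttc
INSIG2 promoter, chr2:118088221-118088520, plus strand: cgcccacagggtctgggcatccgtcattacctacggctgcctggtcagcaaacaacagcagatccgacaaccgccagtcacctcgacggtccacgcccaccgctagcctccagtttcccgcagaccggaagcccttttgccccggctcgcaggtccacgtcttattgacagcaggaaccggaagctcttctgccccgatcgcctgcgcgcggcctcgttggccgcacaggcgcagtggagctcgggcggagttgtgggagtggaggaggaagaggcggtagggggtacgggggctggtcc
SREBF2 promoter, chr22:41832855-41833154, plus strand: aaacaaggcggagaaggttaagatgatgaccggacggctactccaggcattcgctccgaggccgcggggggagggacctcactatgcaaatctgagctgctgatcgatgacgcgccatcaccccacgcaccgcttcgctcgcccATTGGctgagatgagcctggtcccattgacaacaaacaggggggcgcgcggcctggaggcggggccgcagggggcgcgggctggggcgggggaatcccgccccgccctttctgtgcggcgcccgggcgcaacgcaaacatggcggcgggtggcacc
SCD promoter, chr10:100346983-100347282, plus strand: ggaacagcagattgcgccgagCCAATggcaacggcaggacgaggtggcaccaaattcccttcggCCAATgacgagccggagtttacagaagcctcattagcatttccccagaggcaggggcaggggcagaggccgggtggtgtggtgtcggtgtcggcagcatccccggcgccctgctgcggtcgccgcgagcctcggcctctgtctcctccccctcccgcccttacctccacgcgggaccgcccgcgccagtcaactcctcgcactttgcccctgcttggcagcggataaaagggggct
The E-box was matched in 5 of the 28 member windows (17.9%, against 7.43% of all 27305 windows) and the CCAAT box in 17 of 28 (60.7%, against 35.7%). No match overlapped another in the 5 windows, and the INSIG2 window held neither. A match describes letters only, and the sterol regulatory element was not searched for.

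The deposited log2 values stood on different levels: the array medians averaged 5.11 in HUVEC with JINB8 exosomes and 5.14 in HUVEC with JK exosomes, against 6.97 in untreated HUVEC, and 5.12 and 5.11 in RNA of JINB8 and JK exosomes. Replicate 3 of HUVEC with JK exosomes stood apart from its own group, and replicate 3 of HUVEC with JINB8 exosomes lay between the groups. HUVEC with JINB8 exosomes replicate 3 correlated at 0.9955 and 0.9946 with replicates 1 and 2 of HUVEC with JK exosomes, and at 0.9936 and 0.995 with replicates 1 and 2 of its own group. HUVEC with JK exosomes replicate 3 correlated at 0.9948 and 0.9945 with replicates 1 and 2 of HUVEC with JINB8 exosomes, and at 0.9928 and 0.992 with replicates 1 and 2 of its own group. Whether the labels of these arrays were exchanged was not tested. All arrays were kept in the groups their labels give, and calls or values that change when both are left out are given with and without them. All 12 endothelial markers were measured in HUVEC, at median percentiles of 97.4, 97.1 and 95.6 among the genes of an array with JINB8 exosomes, with JK exosomes and untreated, while 11 of 12 T cell markers were measured there at 22.1, 16.3 and 17.9. In RNA of JINB8 and JK exosomes the T cell markers stood at 88.3 and 80.5 and the endothelial markers at 43.5 and 44.8. CD47 did not separate the exosome arrays, with log2 levels of 4.58, 4.67 and 4.94 in JINB8 and 4.72, 4.69 and 4.72 in JK exosome RNA.

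HUVEC kept with exosomes were set against untreated HUVEC to ask which genes of lipid synthesis differ after 6 h with T cell exosomes. HMGCS1, SQLE, INSIG1, FASN and ABCG1 were lower with either kind of exosome, and INSIG2, SCD, SCAP, ACACA, FADS2 and MYLIP were higher. Of the 9 measured enzymes of sterol synthesis, 5 did not pass with either exosome. Not passing was common: 9074 of all 18417 genes passed with JINB8 and 8950 with JK exosomes. These calls were made on log2 values quantile-normalized over the 9 HUVEC arrays with limma, at a Benjamini-Hochberg adjusted p under 0.05 over all 18417 genes. On the deposited scale the median of all genes was -1.71 with JINB8 and -1.68 with JK exosomes, and 30 and 31 of the 32 members were called lower and 0 higher. Of all genes 99.1% and 99.3% were called lower there, so the members went with nearly every gene. Exposure to exosomes and the other array level of the untreated samples, whose processing may have differed, cannot be told apart in these comparisons. Each change below is relative to that shift, and every gene described as higher lay lower, or at most level, on the deposited scale.

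With JINB8 exosomes 8 of the 32 members were called higher (25%) and 10 lower (31.2%), where 26.0% of all genes were called higher and 23.3% lower. With JK exosomes 8 members were called higher (25%) and 9 lower (28.1%), against 26.2% and 22.4% of all genes. At least 2-fold changes were called in 2 members higher and 3 lower with either exosome. Over all genes such changes were called higher in 2.55% and lower in 3.52% with JINB8 exosomes, and higher in 2.27% and lower in 3.45% with JK exosomes. The shares of members called higher were thus near the background, and whether the shares called lower differ from it was not tested. The counts per role given below stand against the same shares of all genes, and they were not tested against them either. The median log2 fold change of the members was -0.14 with JINB8 and -0.08 with JK exosomes, against 0.02 over all genes in each. With either exosome, 8 members lay higher and 9 lower without overlap between treated and untreated arrays. Over all genes the arrays did not overlap in 57.7% with JINB8 and 56.1% with JK exosomes, so a lack of overlap was common. The calls also depend on scaling: after median centring 13 members were called higher and 7 lower with JINB8 exosomes (7025 and 3450 of all genes), and 12 and 7 with JK exosomes (6462 and 3587), where the quantile scale gave 4791 and 4283 of all genes with JINB8 and 4829 and 4121 with JK. Both comparisons use the same 3 untreated arrays, so their values are given side by side and are not independent of each other. In bulk RNA, fewer cells that express a gene and less of its RNA per cell cannot be told apart.

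**Figure D1:**
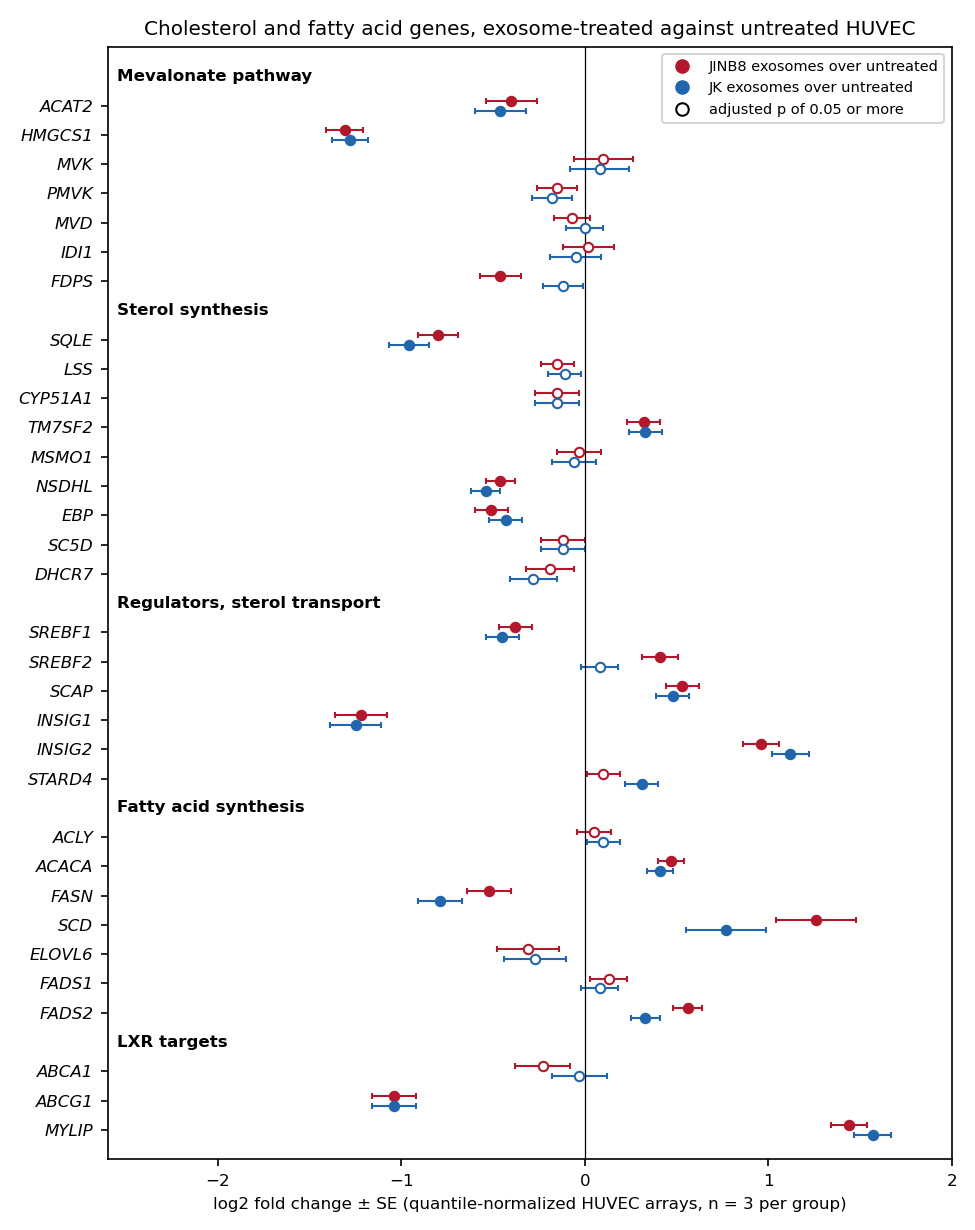
Log2 fold change with its SE for the 32 measured members, ordered by role, for HUVEC with JINB8 exosomes (red) and with JK exosomes (blue) over untreated HUVEC on the quantile-normalized scale (n = 3 arrays per group). Open symbols did not pass the adjusted p threshold of 0.05; HMGCS1, INSIG1 and ABCG1 lie near or beyond -1 and MYLIP above 1 with either exosome, and on the deposited scale MYLIP and the other members called higher lie below 0.

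Of the 7 measured enzymes of the mevalonate pathway, 3 were called lower with JINB8 exosomes and 2 with JK exosomes, and 0 higher. HMGCS1, the cytosolic HMG-CoA synthase that condenses acetyl-CoA with acetoacetyl-CoA, had log2 levels of 6.73, 6.85 and 6.87 in HUVEC with JINB8 exosomes and 6.87, 6.89 and 6.76 with JK exosomes, against 8.25, 8.23 and 7.90 in untreated HUVEC. Every exosome-treated array lay below every untreated array by more than a log2 unit. Its log2 fold change was -1.31 ± 0.10 (SE) with JINB8 (adjusted p 2.04e-06) and -1.28 ± 0.10 with JK exosomes (adjusted p 2.67e-06), a level of 0.404 and 0.411 of that in untreated cells, and it kept its direction and call under every scaling tried. ACAT2, the thiolase that makes acetoacetyl-CoA, was lower by a smaller step, at -0.40 ± 0.14 with JINB8 (adjusted p 0.0361) and -0.46 ± 0.14 with JK exosomes (adjusted p 0.0187). The JINB8 arrays overlapped the untreated ones for ACAT2, at 5.77, 5.65 and 5.26 against 6.23, 5.76 and 5.90, and without replicate 3 of both treated groups its adjusted p with JINB8 exosomes was 0.154.

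FDPS, which makes farnesyl diphosphate, had log2 levels of 7.29, 7.34 and 7.11 with JINB8 and 7.81, 7.56 and 7.40 with JK exosomes, against 7.78, 7.65 and 7.70 in untreated HUVEC. It was called lower with JINB8 exosomes (-0.46 ± 0.11, adjusted p 0.00426) and missed the threshold with JK exosomes (-0.12 ± 0.11, adjusted p 0.385), where the arrays overlapped the untreated ones; after median centring its adjusted p with JINB8 exosomes was 0.0947. MVK, PMVK, MVD and IDI1, the kinases, the decarboxylase and the isomerase between mevalonate and the isoprenoid units, did not pass with either exosome. Their log2 fold changes ran between -0.15 and 0.10 with JINB8 and between -0.18 and 0.08 with JK exosomes.

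Of the 9 measured enzymes of sterol synthesis, 3 were called lower and 1 higher with either exosome. SQLE, the squalene epoxidase, had the largest change among them. Its log2 levels were 9.19, 9.18 and 9.01 with JINB8 and 8.85, 8.90 and 9.16 with JK exosomes, against 9.98, 10.04 and 9.75 in untreated HUVEC. The treated and untreated arrays did not overlap, and SQLE fell by 0.80 ± 0.11 log2 units with JINB8 (adjusted p 0.000117) and by 0.96 ± 0.11 with JK exosomes (adjusted p 3.44e-05). NSDHL, a dehydrogenase of sterol demethylation, was lower at -0.46 ± 0.08 with JINB8 (adjusted p 0.000727) and -0.54 ± 0.08 with JK exosomes (adjusted p 0.000232). EBP, the sterol isomerase, was lower at -0.51 ± 0.09 with JINB8 (adjusted p 0.000507) and -0.43 ± 0.09 with JK exosomes (adjusted p 0.00164). These smaller steps lean on the scaling: after median centring the adjusted p of NSDHL was 0.614 with JINB8 and 0.0954 with JK exosomes, and that of EBP 0.0608 with JK exosomes.

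TM7SF2, a sterol reductase, was the only enzyme of sterol synthesis called higher, at 0.32 ± 0.09 with JINB8 (adjusted p 0.0129) and 0.33 ± 0.09 with JK exosomes (adjusted p 0.0117), and on the deposited scale it stood at -1.52 and -1.46. LSS, the cyclase that closes the sterol rings, CYP51A1, MSMO1, SC5D and DHCR7, which carry the ring through demethylation, desaturation and the final reduction, did not pass. Their log2 fold changes ran between -0.19 and -0.03 with JINB8 and between -0.28 and -0.06 with JK exosomes. DHCR7 with JK exosomes was nearest to a call (adjusted p 0.0965) and passed without replicate 3 of both treated groups (-0.37, adjusted p 0.011). MSMO1, by contrast, was called higher after median centring, at 0.48 with JINB8 and 0.37 with JK exosomes, as was SC5D with JINB8 exosomes, at 0.36.

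Of the 6 regulators, 3 were called higher and 2 lower with either exosome, and a pair of related genes changed in opposite directions. INSIG1, which retains SCAP in the endoplasmic reticulum and is itself a target of the sterol regulatory element-binding proteins, had log2 levels of 7.81, 7.73 and 7.32 with JINB8 and 7.50, 7.52 and 7.76 with JK exosomes, against 8.84, 9.04 and 8.63 in untreated HUVEC. All treated arrays lay below all untreated ones, and the log2 fold change was -1.22 ± 0.14 with JINB8 (adjusted p 3.77e-05) and -1.25 ± 0.14 with JK exosomes (adjusted p 3.5e-05), or -1.06 and -1.32 without replicate 3 of both treated groups. INSIG2, its relative with the same role in sterol retention, had 7.21, 7.31 and 6.94 with JINB8 and 7.18, 7.36 and 7.41 with JK exosomes, against 6.23, 6.19 and 6.17 in untreated HUVEC. INSIG2 was higher by 0.96 ± 0.10 with JINB8 (adjusted p 2.38e-05) and 1.12 ± 0.10 with JK exosomes (adjusted p 8e-06) on the quantile scale, was also called higher after median centring and after cyclic loess, and stood at -0.82 and -0.62 on the deposited scale. Of the promoter windows shown above, that of INSIG1 held an E-box and a CCAAT box and that of INSIG2 neither. The window of SCD, which was called higher, held CCAAT boxes too, and whether matches go with the direction of change was not tested.

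SREBF1, whose product drives fatty acid genes above all, was lower at -0.38 ± 0.09 with JINB8 (adjusted p 0.00521) and -0.45 ± 0.09 with JK exosomes (adjusted p 0.00202), and after median centring its adjusted p with JINB8 exosomes was 0.0606. SREBF2, whose product drives cholesterol genes above all, had log2 levels of 8.58, 8.57 and 8.34 with JINB8 and 8.16, 8 and 8.33 with JK exosomes, against 8.10, 8.02 and 8.13 in untreated HUVEC. It was called higher with JINB8 exosomes (0.41 ± 0.10, adjusted p 0.00597) and missed the threshold with JK exosomes (0.08 ± 0.10, adjusted p 0.562), where only replicate 3 lay above every untreated array by more than 0.1. Without replicate 3 of both treated groups SREBF2 stood at 0.49 with JINB8 (adjusted p 0.00191) and -0.01 with JK exosomes (adjusted p 0.956). SCAP, the escort protein, was higher at 0.53 ± 0.09 with JINB8 (adjusted p 0.00048) and 0.48 ± 0.09 with JK exosomes (adjusted p 0.000909). STARD4, a carrier of sterols between membranes, passed with JK exosomes (0.31 ± 0.09, adjusted p 0.0139) and not with JINB8 exosomes (0.10 ± 0.09, adjusted p 0.365), and without replicate 3 of both treated groups its adjusted p with JK exosomes was 0.0541. After median centring SREBF2 passed with JK exosomes too (0.31, adjusted p 0.0445) and STARD4 with JINB8 exosomes too (0.43, adjusted p 0.00414). On the deposited scale SREBF2, SCAP and STARD4 were all lower, at -1.12, -1.07 and -1.41 with JINB8 and -1.47, -1.11 and -1.22 with JK exosomes.

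Of the 7 fatty acid enzymes, 3 were called higher and 1 lower with either exosome. FASN, the synthase that assembles palmitate, had log2 levels of 7.81, 7.87 and 7.50 with JINB8 and 7.40, 7.29 and 7.68 with JK exosomes, against 8.29, 8.19 and 8.27 in untreated HUVEC. It was lower in every treated array, at -0.52 ± 0.12 with JINB8 (adjusted p 0.00383) and -0.79 ± 0.12 with JK exosomes (adjusted p 0.000273), although after median centring its adjusted p with JINB8 exosomes was 0.151. SCD, the stearoyl-CoA desaturase that makes monounsaturated fatty acids, had 11.00, 11.02 and 10.32 with JINB8 and 10.06, 10.00 and 10.82 with JK exosomes, against 9.54, 9.41 and 9.62 in untreated HUVEC. All treated arrays lay above all untreated ones, with replicate 3 of each group far from its other arrays. The log2 fold change of SCD was 1.26 ± 0.22 with JINB8 (adjusted p 0.000702) and 0.77 ± 0.22 with JK exosomes (adjusted p 0.014), and -0.11 and -0.64 on the deposited scale. Without replicate 3 of both treated groups it was 1.48 with JINB8 (adjusted p 3.69e-06) and 0.50 with JK exosomes (adjusted p 0.00206) for SCD, and -0.41 (adjusted p 0.00413) and -0.89 (adjusted p 5.97e-05) for FASN.

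FADS2, a desaturase of polyunsaturated fatty acids, had log2 levels of 10.83, 10.89 and 10.77 with JINB8 and 10.60, 10.52 and 10.68 with JK exosomes, against 10.31, 10.21 and 10.28 in untreated HUVEC, with no overlap between treated and untreated arrays. It was higher by 0.56 ± 0.08 with JINB8 (adjusted p 0.000139) and 0.33 ± 0.08 with JK exosomes (adjusted p 0.00465). ACACA, the acetyl-CoA carboxylase that makes malonyl-CoA, was higher at 0.47 ± 0.07 with JINB8 (adjusted p 0.00021) and 0.41 ± 0.07 with JK exosomes (adjusted p 0.000604). On the deposited scale FADS2 and ACACA were lower, at -0.74 and -1.15 with JINB8 and -1 and -1.21 with JK exosomes. ACLY, which supplies cytosolic acetyl-CoA from citrate, ELOVL6, an elongase, and FADS1, the partner desaturase of FADS2, did not pass, with log2 fold changes between -0.31 and 0.13 with JINB8 and between -0.27 and 0.10 with JK exosomes. After median centring ACLY was called higher with JINB8 (0.48, adjusted p 0.00121) and JK exosomes (0.46, adjusted p 0.00187), as was FADS1 (0.50, adjusted p 0.00237, and 0.38, adjusted p 0.0132), and ELOVL6 lower with JINB8 exosomes (-0.37, adjusted p 0.0485).

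Of the 3 LXR targets, 1 was called higher and 1 lower with either exosome. MYLIP, an E3 ubiquitin ligase that marks receptors of the cell surface for degradation, had log2 levels of 8.45, 8.2 and 8.5 with JINB8 and 8.55, 8.60 and 8.39 with JK exosomes, against 7.04, 6.86 and 6.93 in untreated HUVEC. Treated and untreated arrays were more than a log2 unit apart, and MYLIP was the member with the largest positive change on this scale, at 1.44 ± 0.10 with JINB8 (adjusted p 9.67e-07) and 1.57 ± 0.10 with JK exosomes (adjusted p 5.47e-07). On the deposited scale it stood at -0.20 and -0.08, with adjusted p of 0.0982 and 0.493. ABCG1, an exporter of cholesterol, had 6.75, 6.64 and 6.51 with JINB8 and 6.56, 6.57 and 6.77 with JK exosomes, against 7.86, 7.38 and 7.76 in untreated HUVEC. ABCG1 was lower in every treated array, at -1.04 ± 0.12 with JINB8 (adjusted p 4.73e-05) and -1.04 ± 0.12 with JK exosomes (adjusted p 5.15e-05). ABCA1, the exporter that loads cholesterol onto apolipoproteins, did not pass with JINB8 (-0.23 ± 0.15, adjusted p 0.214) or JK exosomes (-0.03 ± 0.15, adjusted p 0.893). Without replicate 3 of both treated groups ABCA1 was called lower with JINB8 exosomes (-0.36, adjusted p 0.0269) and not with JK exosomes (0.10, adjusted p 0.486).

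**Figure D2:**
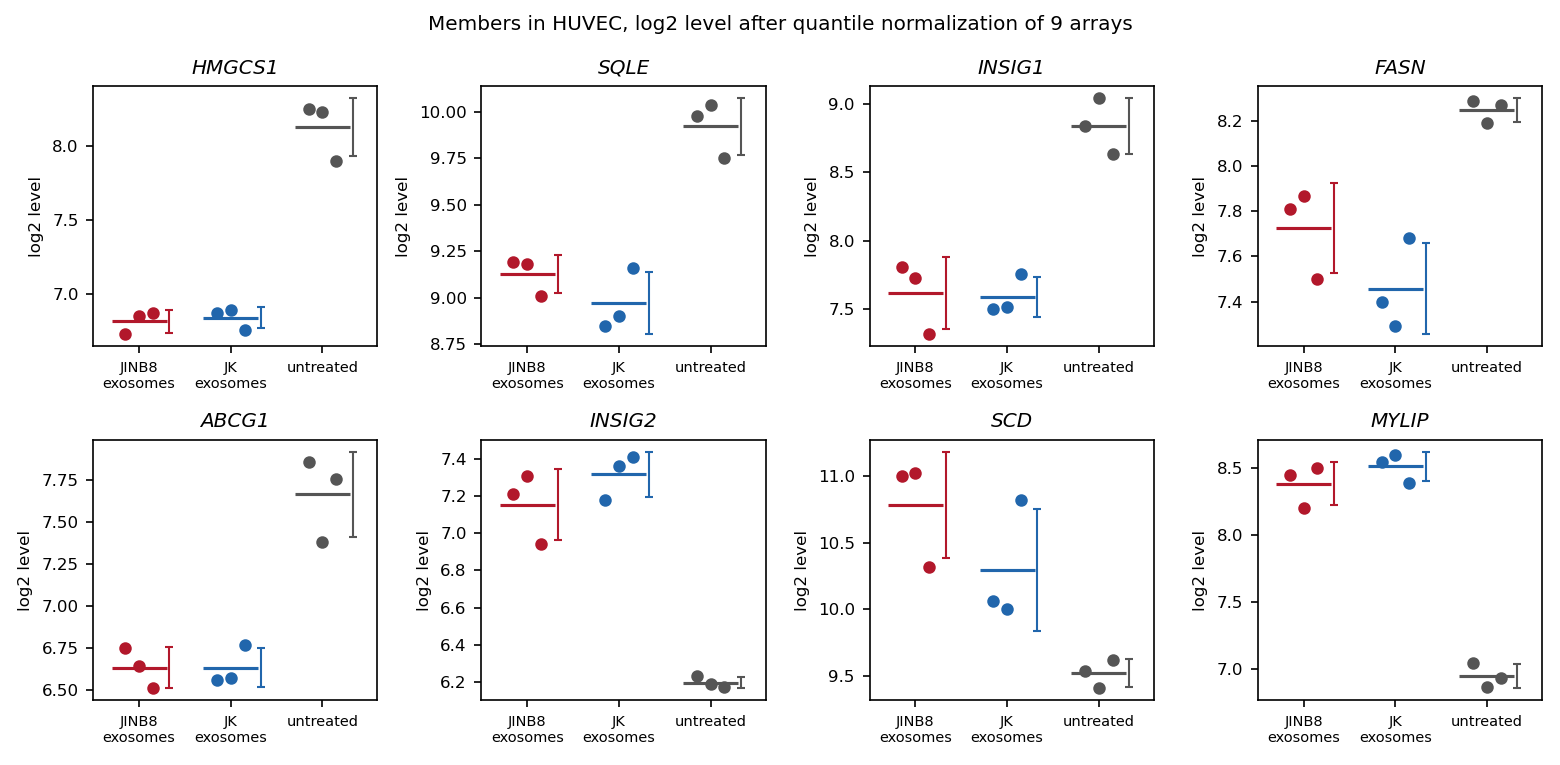
Log2 level after quantile normalization of the 9 HUVEC arrays for 8 members, with each point an array, the horizontal line the mean and the bar the SD of 3 arrays. HMGCS1, SQLE, INSIG1, FASN and ABCG1 lie lower in every exosome-treated array than in every untreated array, and INSIG2, SCD and MYLIP higher. On the deposited scale the means of INSIG2, SCD and MYLIP lie lower than in untreated HUVEC. Over all genes, treated and untreated arrays did not overlap in 57.7% with JINB8 and 56.1% with JK exosomes.

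A wider list of 50 genes around these pathways, 44 of them measured, gave shares of the same order. With JINB8 exosomes 10 were called higher (22.7%) and 13 lower (29.5%), and with JK exosomes 11 higher (25%) and 14 lower (31.8%). LIPA, the lysosomal acid lipase that frees cholesterol from its esters, had log2 levels of 9.65, 9.81 and 9.51 with JINB8 and 9.55, 9.56 and 9.82 with JK exosomes, against 8.16, 8.19 and 8.10 in untreated HUVEC. It was higher by 1.51 ± 0.10 with JINB8 (adjusted p 7.65e-07) and 1.49 ± 0.10 with JK exosomes (adjusted p 8.73e-07), and level on the deposited scale, at 0.02 and -0.02. SCD5, a second stearoyl-CoA desaturase, was higher by 1.05 ± 0.10 with JINB8 and 1.06 ± 0.10 with JK exosomes. MBTPS1, the protease that makes the first cut in the sterol regulatory element-binding proteins, was higher by 0.67 ± 0.07 and 0.72 ± 0.07, and HACD3, a dehydratase of fatty acid elongation, by 0.72 ± 0.09 and 0.69 ± 0.09. On the deposited scale SCD5, MBTPS1 and HACD3 were lower, at -0.54, -0.65 and -0.63 with JINB8 and -0.55, -0.61 and -0.69 with JK exosomes.

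HUVEC with JINB8 exosomes were set against HUVEC with JK exosomes on the deposited values to ask whether the donor line goes with a difference in the recipient cells. CD47 status cannot be told apart here from any other difference between the donor lines or their exosome preparations. No member was called, and limma called 0% of all genes at an adjusted p under 0.05, with a smallest adjusted p of 0.0644 and 1678 genes at an unadjusted p under 0.05. At that unadjusted threshold 3 members were higher (SREBF2, FADS2 and SCD) and 1 lower (FDPS), where 4.46% of all genes were higher and 4.65% lower. SREBF2 had deposited log2 levels of 8.08, 8.07 and 7.85 with JINB8 exosomes, against 7.66, 7.45 and 7.82 with JK exosomes, a difference of 0.35 ± 0.11 (adjusted p 0.376). FDPS had 6.72, 6.77 and 6.55 with JINB8, against 7.31, 7.02 and 6.85 with JK exosomes, a difference of -0.38 ± 0.12 (adjusted p 0.383). FADS2 differed by 0.26 ± 0.10 (adjusted p 0.471), with no overlap between the groups, as in 17.5% of all genes.

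SCD was the member with the widest difference and the widest spread. It had deposited log2 levels of 10.58, 10.63 and 9.87 with JINB8 exosomes, against 9.60, 9.49 and 10.40 with JK exosomes, a difference of 0.53 ± 0.23 (adjusted p 0.517). Each group held 2 arrays close together and a replicate 3 nearer to replicates 1 and 2 of the other group. The same crossing of replicate 3 was seen in FASN, with 7.29, 7.33 and 6.97 with JINB8 against 6.90, 6.76 and 7.15 with JK exosomes, and in IDI1, with 8.31, 8.19 and 7.86 against 7.92, 7.84 and 8.32. ABCA1 crossed in the opposite sense, with 5.33, 5.27 and 5.77 with JINB8 against 5.87, 5.88 and 5.42 with JK exosomes.

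Without replicate 3 of both groups, a choice made after seeing the data that leaves 2 arrays against 2, SCD was 1.06 ± 0.12 higher with JINB8 exosomes (adjusted p 0.000879) and was the only member called, where 0.923% of all genes were called higher. SREBF2 was then 0.52 ± 0.13 higher (adjusted p 0.0633), FASN 0.48 ± 0.12 higher (adjusted p 0.0828) and ABCA1 at -0.57 ± 0.13 (adjusted p 0.0519), none past the threshold. The part of these arrays in the full comparison was not tested beyond leaving them out.

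**Figure D3:**
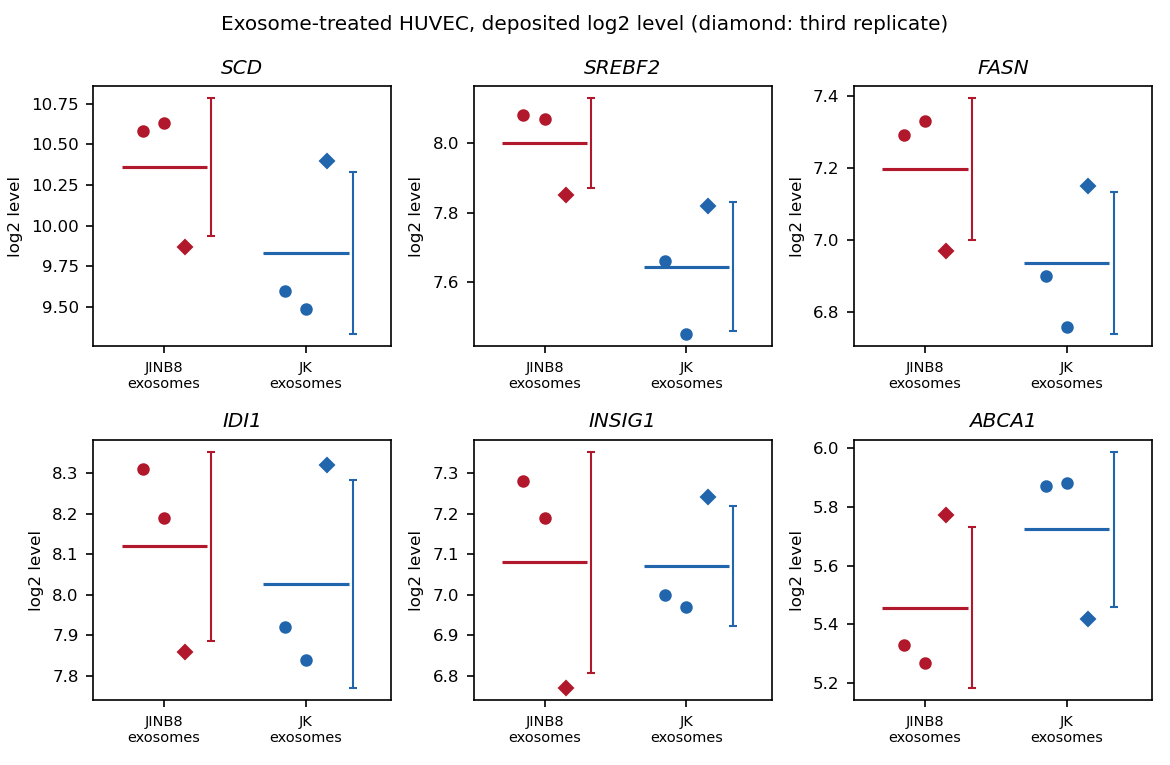
Deposited log2 level of 6 members in HUVEC with JINB8 exosomes (left) and with JK exosomes (right), with each point an array, diamonds replicate 3, horizontal lines the mean and bars the SD of 3 arrays. In SCD the diamonds lie at 9.87 with JINB8 and 10.40 with JK exosomes, each nearer to the circles of the other group than to those of its own, and no difference shown passed the adjusted p threshold with all arrays.

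RNA of JINB8 exosomes was set against RNA of JK exosomes to compare what the vesicles themselves carried. Of the 32 members, 1 was called higher and 0 lower, where 0.668% of all genes were called higher and 0.0109% lower, and the median difference of the members was 0.04 against 0 over all genes. FADS2 had log2 levels of 6.68, 6.66 and 6.62 in JINB8 exosome RNA, against 6.28, 6.31 and 6.10 in JK exosome RNA. The groups did not overlap, as in 12.9% of all genes. The difference was 0.42 ± 0.08 (adjusted p 0.0337), but it passed in none of the 6 fits that left out an array, where its adjusted p was 0.0575 to 0.152. SCD had 5.58, 5.58 and 5.58 in JINB8, against 5.40, 5.43 and 5.02 in JK exosome RNA, a difference of 0.30 ± 0.10 that did not pass (adjusted p 0.382). MSMO1, TM7SF2 and ACLY, at 0.28 ± 0.12, 0.21 ± 0.09 and 0.18 ± 0.08, did not pass either (adjusted p 0.54 to 0.594). MSMO1 lay among the lowest genes of these arrays, at mean percentiles of 5.8 in JINB8 and 2.8 in JK exosome RNA, and was not shown to be above background.

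RNA of both kinds of exosome was set against exosome-treated HUVEC to place the members in vesicle and in cell RNA; T cell origin and vesicle material cannot be told apart in this comparison. On the deposited scale 30 of the 32 members were called lower in exosome RNA, 23 of them at least 2-fold, and 2 higher. Over all genes 49.7% were called lower, 38.7% at least 2-fold lower, and 45.3% higher. The median log2 difference of the members was -2.03, against -0.13 over all genes. After quantile normalization these medians were -1.27 and 0.23 with 25 members lower, after median centring -1.61 and 0.29 with 25 lower, and after cyclic loess -0.83 and 0.12 with 20 lower. Over all genes these scalings called 41.1%, 44.2% and 41.4% lower, in that order. The spread of values within an array was narrower in exosome RNA, with a mean SD over genes of 1.55 in JINB8 and 1.52 in JK exosome RNA, against 2.20 and 2.21 in HUVEC with JINB8 and JK exosomes, and its part in these differences was not tested.

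MSMO1, the sterol methyl oxidase, had log2 levels of 3.22, 3.53 and 3.51 in JINB8 and 3.23, 3.31 and 2.89 in JK exosome RNA, against 9.74, 9.93 and 9.73 in HUVEC with JINB8 and 9.79, 9.70 and 9.76 in HUVEC with JK exosomes. It stood at mean percentiles of 5.8 and 2.8 among the genes of JINB8 and JK exosome arrays, against 96.9 and 96.8 in HUVEC with JINB8 and JK exosomes. SC5D, the sterol desaturase, had 3.38, 3.47 and 3.21 in JINB8 and 3.59, 3.47 and 3.46 in JK exosome RNA, against 9.70, 9.71 and 9.55 in HUVEC with JINB8 and 9.61, 9.51 and 9.78 in HUVEC with JK exosomes. Both genes were called lower, but their levels in exosome RNA lay among the lowest of the arrays. With no detection call in the values used here neither was shown to be above background there, so no fold against treated HUVEC is given for them. SCD differed by -4.66 ± 0.15, NSDHL by -4.05 ± 0.06, STARD4 by -3.89 ± 0.07, FADS2 by -3.85 ± 0.06 and SQLE by -3.64 ± 0.07. STARD4, NSDHL and SQLE also stood low, at mean percentiles of 21.8, 28.6 and 41.9 in JINB8 and 19.3, 24.5 and 39.4 in JK exosome RNA. No detection call was at hand for these genes either, so background may limit the size of their differences. In SCD, NSDHL, STARD4, FADS2 and SQLE every exosome array lay below every HUVEC array. Each was lower under every scaling tried apart from FADS2, which stood at 0.07 after cyclic loess. Such a lack of overlap was common here: exosome and treated HUVEC arrays did not overlap in 88.4% of all genes. Of the 18417 genes, 8673 lay lower in this way.

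PMVK, the phosphomevalonate kinase, and SREBF1 were the members called higher in exosome RNA, by 0.21 ± 0.06 (adjusted p 0.00265) and 0.20 ± 0.06 (adjusted p 0.00679). PMVK had 6.24, 6.31 and 6.34 in JINB8 and 6.27, 6.30 and 6.09 in JK exosome RNA, against 6.00, 5.97 and 6.14 in HUVEC with JINB8 and 6.08, 5.98 and 6.12 in HUVEC with JK exosomes, so the materials overlapped. MVD, which decarboxylates mevalonate diphosphate, and EBP were slightly lower on the deposited scale, at -0.47 ± 0.05 and -0.36 ± 0.05, and higher after quantile normalization, at 1.00 and 1.05. By percentile MVD stood at 86.4 and 86.3 in JINB8 and JK exosome RNA, against 67.4 and 68.4 in the treated HUVEC. The wider list was also tilted to lower values, with 34 of 44 genes lower and 8 higher in exosome RNA. Of its genes 6 were called at least 2-fold higher, and of the 32 members 0. The share of all genes that far higher was not counted, so no difference between the lists is read from this. Among the lower ones was ERLIN1, a sterol-binding protein of the endoplasmic reticulum, at a mean log2 level of 3.54 in exosome RNA, also not shown to be above background, against 9.42 in treated HUVEC.

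**Figure D4:**
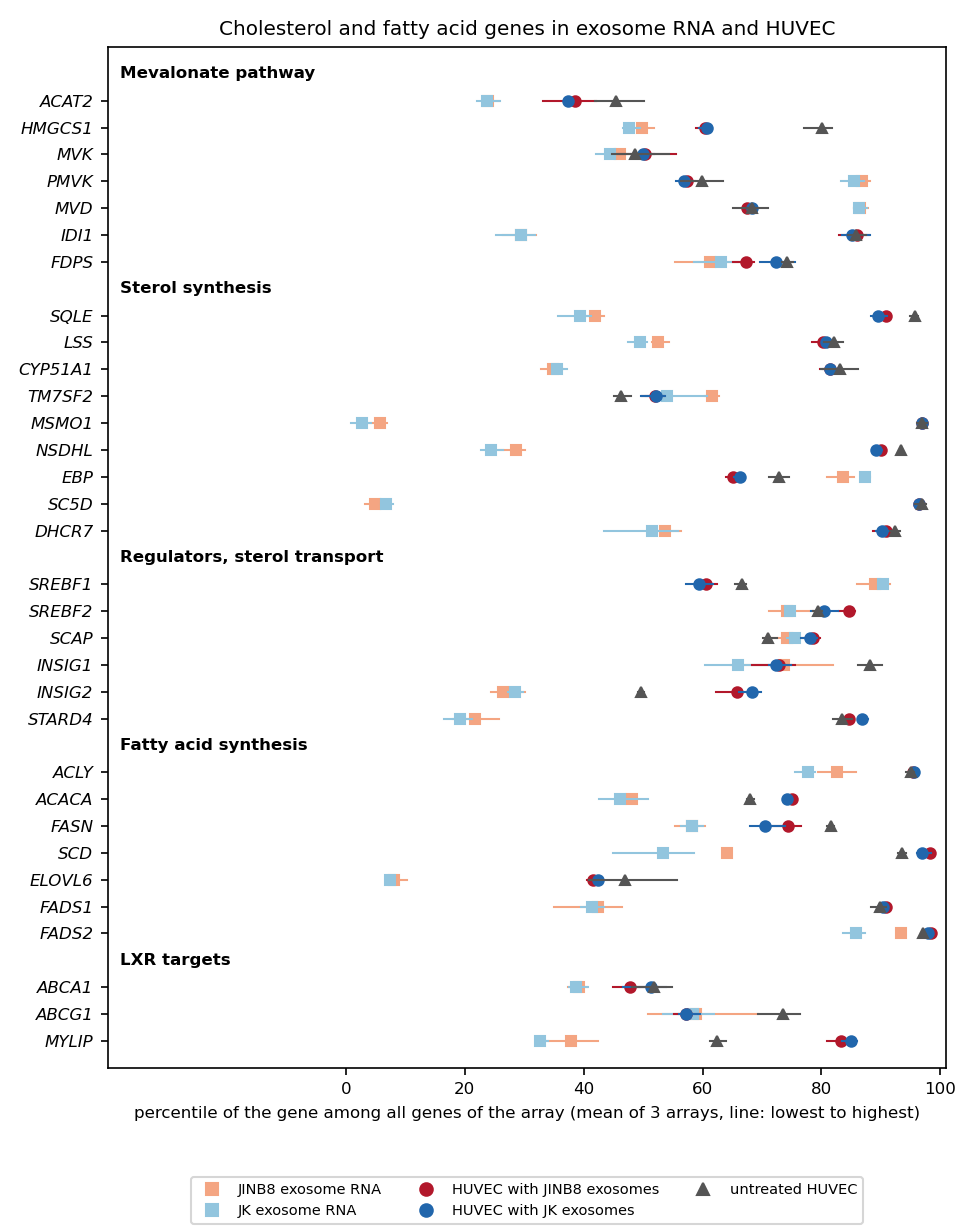
Percentile of each member among the 18417 genes of an array, as the mean of 3 arrays with a line to the lowest and highest, in RNA of JINB8 and JK exosomes (squares) and in HUVEC with JINB8 exosomes, with JK exosomes and untreated (circles and triangles). Symbols are to be compared within a gene, since probesets differ in brightness; MSMO1 and SC5D lie below 10 in exosome RNA and above 96 in HUVEC, while PMVK, MVD, EBP and SREBF1 lie higher in exosome RNA.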

How the data were processed

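RNA of 15 samples (300 ng each) was measured on Affymetrix whole-transcript arrays. The authors deposited log2 expression values per probeset, made with Affymetrix Expression Console per the submitters' processing notes; the sources used here do not give its version, background correction or normalization. Of 33297 probesets, 19460 carried 1 gene symbol, 1754 several and 12083 were not listed in the annotation. The 19460 gave 18417 genes, 769 of them with more than 1 probeset, each represented by the probeset with the highest mean. The fit was lmFit and eBayes of limma 3.58.1 in R 4.3.3, with p-values adjusted by the Benjamini-Hochberg method across all 18417 genes and called under 0.05. Comparisons with untreated HUVEC used 9 arrays quantile-normalized at the gene level. The others used the deposited log2 values, in fits of 9 (JINB8- against JK-treated HUVEC), 6 (exosome RNA) and 12 arrays (exosome RNA against treated HUVEC). The limma fit was tested on simulated data without a shift between arrays, and the normalization was not tested in this way. An exact permutation test of 3 against 3 arrays cannot go below 0.1, so only fits across genes are given. No arrays were identical, and precision is limited by their number. The members and gene lists were chosen with earlier results of these data known. Beyond the listed members, genes of the wider list could be named where they passed the threshold with an absolute log2 fold change of at least 1 or, where fewer than 4 did, as the 4 with the smallest p among those that passed.
Same-numbered arrays did not deviate together: the correlation of their deviations from the group means was -0.01 to 0.07 for JINB8-treated with untreated HUVEC, -0.08 to 0.24 for JK-treated with untreated HUVEC, -0.45 to -0.18 for JINB8- with JK-treated HUVEC and -0.04 to 0.03 in exosome RNA, so replicate numbers were not taken as pairs. Alternatives were other scalings, a filter on dim genes, the mean of probesets, a variance trend with robust fitting, the replicate block and leaving out each array.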

Additional observations from a re-analysis of the deposited data

How the results depend on the processing

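The scaling mattered most. On the deposited values 18286 genes were called with JINB8 exosomes (34 higher, 18252 lower; 0 members higher, 30 lower) and 18319 with JK exosomes (30 and 18289; 0 and 31), and the log2 fold change turned negative with JINB8 exosomes for MVK (-1.75), IDI1 (-1.48), TM7SF2 (-1.52), SREBF2 (-1.12), SCAP (-1.07), INSIG2 (-0.82), STARD4 (-1.41), ACLY (-1.35), ACACA (-1.15), SCD (-0.11), FADS1 (-1.34), FADS2 (-0.74) and MYLIP (-0.20), and with JK exosomes for MVK (-1.73), TM7SF2 (-1.46), SREBF2 (-1.47), SCAP (-1.11), INSIG2 (-0.62), STARD4 (-1.22), ACLY (-1.32), ACACA (-1.21), SCD (-0.64), FADS1 (-1.40), FADS2 (-1) and MYLIP (-0.08). After median centring the median of all genes stood at 0.13 with JINB8 and 0.1 with JK exosomes, against 0.02 on the quantile scale. Median centring called 13 members higher with JINB8 exosomes. MSMO1 (0.48 with JINB8, 0.37 with JK) and SC5D (0.36 with JINB8) turned positive and were called. Others changed sign without a call. Over the 14 alternatives other than the deposited scale, LSS, CYP51A1 and DHCR7 reached at most 0.17, 0.16 and 0.21 with JINB8, and SC5D 0.29 with JK exosomes. For exosome RNA over treated HUVEC, quantile normalization called 5 members higher and turned MVD (1.00), TM7SF2 (0.25), EBP (1.05) and ABCG1 (0.06) positive, median centring TM7SF2 (0.09) and EBP (0.05), and cyclic loess, with 7 members higher, MVD (1.24), EBP (1.21), SREBF2 (0.25), SCAP (0.36), INSIG1 (0.23) and FADS2 (0.07); leaving out the 40% dimmest genes left 11050 tested and 10578 called. Over all genes, quantile normalization called 51.6% higher in exosome RNA and cyclic loess 49%. The cause of the changes between scalings was not tested. HMGCS1, SQLE, SCAP, INSIG1, INSIG2, ACACA, FADS2, ABCG1 and MYLIP passed with both exosomes under all 14 alternatives other than the deposited scale. SQLE ranged between -0.89 and -0.36 with JINB8 and between -1.05 and -0.59 with JK exosomes.

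Leaving out 1 array gave 7830 to 8594 genes with JINB8 exosomes (7 to 8 members higher, 9 to 11 lower), 7801 to 8485 with JK exosomes (7 to 8, 9 to 10), and 17396 to 17517 for exosome RNA over treated HUVEC. With JK exosomes the adjusted p was 0.0524 for SCD without untreated replicate 2, 0.0712 for ACAT2 without untreated replicate 1, 0.053 for STARD4 without untreated replicate 3 and 0.0511 for TM7SF2 without JK replicate 1. With JINB8 exosomes it was 0.056 for TM7SF2 without JINB8 replicate 2, and for ACAT2 0.136 without untreated replicate 1, 0.0548 without untreated replicate 3, 0.0507 without JINB8 replicate 2, 0.143 without JINB8 replicate 3 and 0.0707 after cyclic loess; ACAT2 passed in 8 of 14 alternatives other than the deposited scale. Between JINB8- and JK-treated HUVEC, 0 genes were called at first, 0 to 3 without 1 array, 8 after median centring, 6 after cyclic loess, 8 without dim genes, 23 with a variance trend, and 300 genes and 1 member without replicate 3 of both groups. In exosome RNA of JINB8 over JK, 54 to 100 genes and 0 members were called without 1 array.

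With the replicate number as a block, 8810 genes were called with JINB8 exosomes (8 members higher, 10 lower), 8618 with JK exosomes (8 and 9), 0 between the treated groups, and 104 genes and 0 members in exosome RNA, where FADS2 had an adjusted p of 0.0547. The block changed no other count by over 1.5 times.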
